A study of Mus musculus with 15 samples.

Results

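The 37 genes described here belong to 2 linked stress responses of mouse cells, the ATF4 amino acid response (29 genes) and the unfolded protein response of the endoplasmic reticulum (ER, 8 genes). They were chosen by name, each was matched by its Ensembl identifier in the deposited count table of 49585 genes, and all 37 passed the filter on low counts that left 15223 genes for testing. The libraries were made from poly(A) RNA of E14, a wild-type mouse embryonic stem (ES) cell line, with 3 libraries in each of 5 cultures. All cells had been kept in 2i/Lif on gelatin (0.4 µM PD0325901, a MEK inhibitor, 3 µM CHIR99021, a GSK3 inhibitor, and 4 ng/ml of the cytokine Lif) and were then embedded at 2000 cells per µl in growth factor reduced Matrigel, a basement membrane gel, under N2B27 medium. To that medium was added FGF2/Activin, PD032+ Aurka inh, PD032, Aurka inh or 2iLif. FGF2/Activin is growth factor medium, Aurka inh is named for the mitotic kinase Aurora A, and the labels spell out neither PD032 nor the inhibitor, and give no dose or time in Matrigel. Nothing in the labels says whether the 3 libraries of a group came from separate cultures. The p-values rest on the spread between libraries within groups, pooled over the 5 groups, and this spread may be technical.

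ATF4 is a transcription factor whose translation goes up when eIF2α is phosphorylated, by GCN2 under amino acid shortage, by PERK under ER stress or by other kinases. It activates genes for amino acid synthesis and uptake, tRNA charging and feedback control, through a composite C/EBP-ATF site (CARE). The unfolded protein response runs in parallel through ATF6 and XBP1, which act on ER chaperone promoters through the ER stress element (ERSE). Because ATF4 is controlled largely in translation and XBP1 by splicing, their own mRNA levels are an incomplete measure of their activity.

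Some promoters of both groups carry these elements, and stretches from some of the matching genes are shown. Of the 37 genes, 33 had a promoter window in RefSeq (build GRCm38.p6, 250 bases before to 50 after the start). The letters TTGCATCA (CARE, searched on both strands) occurred in 7 of 25 ATF4-related genes, which were Aars, Atf3, Chac1, Nupr1, Pycr1, Slc7a11 and Vldlr, and in 1 of 8 ER genes, Herpud1, against 0.895% of all 32851 windows. With any base at the third position (TTNCATCA, which includes the first form) Asns, Gars and Trib3 also matched, against 3.97% of all windows. The ERSE, which is CCAAT, then any 9 bases, then CCACG, occurred in Calr, Hsp90b1 and Hspa5, against 0.119% of windows, and in none of the 25 ATF4-related genes. A second form, which is ATTGG, any 1 base and CCACG, occurred in Herpud1, against 0.0365% of windows. A match is a description of letters and not evidence of a bound site, and no match says only that these letters are not in this window. In the lines that follow, capitals mark the matched letters, or their reverse complement, and in the ERSE only the fixed letters at its ends. All are read 5′ to 3′ on the strand of the gene. Chac1, Vldlr, Pycr1 and Slc7a11 are shown as ATF4-related genes that were higher than in 2iLif in each of the other cultures, Asns and Aars as genes that were not, Hspa5 and Calr as chaperones, and Herpud1 because it holds both kinds of element.
Chac1 (chr2:119351025-119351080, plus strand): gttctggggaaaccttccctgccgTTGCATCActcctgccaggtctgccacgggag
Vldlr (chr19:27216796-27216851, plus strand): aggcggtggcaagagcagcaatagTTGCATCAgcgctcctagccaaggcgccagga
Pycr1 (chr11:120643820-120643875, minus strand): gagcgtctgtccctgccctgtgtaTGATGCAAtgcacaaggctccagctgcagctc
Slc7a11 (chr3:50443629-50443703, minus strand): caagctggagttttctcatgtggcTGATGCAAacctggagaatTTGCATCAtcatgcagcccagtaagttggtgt
Asns (chr6:7693210-7693256, minus strand): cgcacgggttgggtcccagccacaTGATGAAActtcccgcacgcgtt
Aars (chr8:111033706-111033761, plus strand): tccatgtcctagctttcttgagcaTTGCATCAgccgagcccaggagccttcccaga
Hspa5 (chr2:34772001-34772067, plus strand): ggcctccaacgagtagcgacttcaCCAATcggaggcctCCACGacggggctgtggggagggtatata
Calr (chr8:84847051-84847117, minus strand): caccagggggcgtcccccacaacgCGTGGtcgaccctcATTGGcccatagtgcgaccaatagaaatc
Herpud1 (chr8:94386293-94386411, plus strand): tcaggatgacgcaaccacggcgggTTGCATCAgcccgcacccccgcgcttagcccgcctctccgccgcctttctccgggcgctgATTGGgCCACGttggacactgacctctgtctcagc

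Total counts per library lay between 15199507 and 24202544. The biological coefficient of variation within a group was 1.77% in FGF2/Activin, 8.9% in PD032+ Aurka inh, 9.32% in PD032, 11.1% in Aurka inh and 4.52% in 2iLif. The files of the 3 inhibitor groups are named in one style and those of FGF2/Activin and 2iLif in another, so that in the 3 comparisons of an inhibitor group with 2iLif a difference between file sets and the treatment cannot be told apart. All 8 ES cell markers were present in every group, with summed levels of 2441 to 2471 CPM (counts scaled to the library total) in FGF2/Activin, 3160 to 3330 in PD032+ Aurka inh, 2521 to 2681 in PD032, 2530.1 to 2887 in Aurka inh and 4099 to 4214 in 2iLif. Single markers went in both directions against 2iLif. Their log2 fold changes ran from -4.83 to 1.90 in FGF2/Activin and -0.88 to 0.81 in PD032+ Aurka inh. They ran from -2.28 to 1.18 in PD032 and -2.52 to 1.34 in Aurka inh. The summed markers of fibroblasts reached at most 20.6 CPM, of trophoblast 57.3, of mesoderm 22.6, of neuroectoderm 154 and of primitive endoderm 416, and the part of any of these cells in the results was not tested. In bulk RNA, fewer cells of a type and less RNA per cell cannot be told apart.

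Levels were compared between genes per length, in CPM per kilobase of exon. In 2iLif the lowest was Slc7a11, the cystine and glutamate exchanger subunit, at 4.21 ± 0.482, and the highest was Asns, asparagine synthetase, at 465 ± 20.3 (SD, n = 3). The rank of Slc7a11 depends on its long divisor, a union of 13922 exon bases. By CPM, genes such as Ddit3, Dnajb9 and Atf3 were lower in 2iLif. The chaperone Calr stood at 263 ± 12.4 in 2iLif, Hspa5 at 189 ± 4.31 and Atf4 itself at 150.3 ± 4.23. Across the 5 cultures, the highest group mean of a gene was 1.06 to 3.83 times its lowest in the ATF4-related genes (median 1.51, with 8 of 29 above 2), and 1.26 to 1.61 times in the ER genes (median 1.33, with 0 of 8 above 2). Of the 29 ATF4-related genes, 13 had their highest mean in PD032 and 8 in PD032+ Aurka inh, while 12 had their lowest in FGF2/Activin and 11 in 2iLif. Of the 6 ER chaperones, 5 had their lowest mean in PD032+ Aurka inh. These ratios and orders were not counted over all genes. An order that sets the inhibitor groups apart from FGF2/Activin and 2iLif cannot be told apart from the file naming styles.

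**Figure D1:**
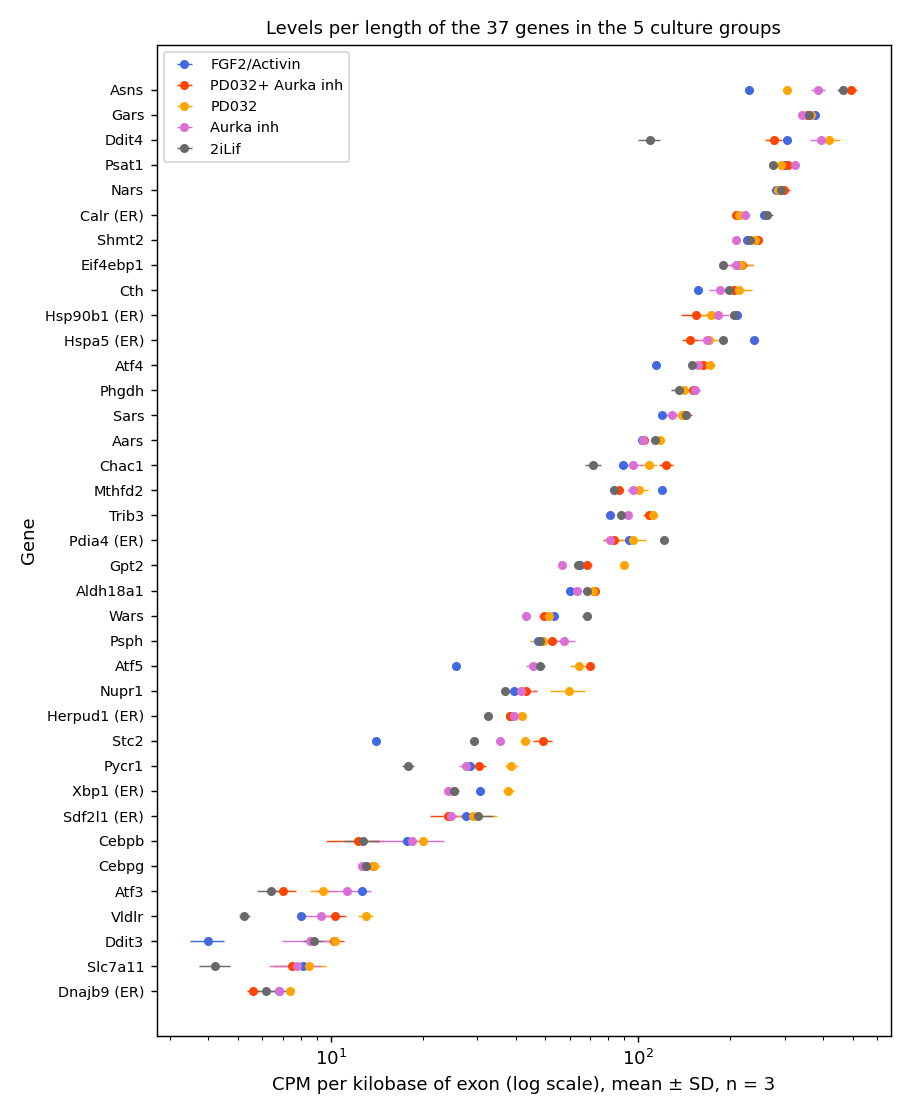
Level of each of the 37 genes in CPM per kilobase of exon (log axis), as the mean ± SD of 3 libraries, with 1 colour per culture. In Stc2 all 5 cultures lie apart, in Ddit4, Atf5, Ddit3, Vldlr and Asns at least 1 culture lies apart from the others, and in the tRNA synthetase genes Nars and Gars they nearly coincide.

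Differences were tested with edgeR's quasi-likelihood test, and passed means an adjusted p (Benjamini-Hochberg, across every gene in the fit) under 0.05. The ± after a log2 fold change is its standard error. In FGF2/Activin, set against 2iLif, the ATF4-related genes split in shares near those of all genes. Ddit4, Atf3, Slc7a11, Pycr1 and Vldlr were higher, while Ddit3, Stc2, Asns, Atf5 and Atf4 were lower. Of the 29, 10 rose, 11 fell and 8 did not pass, where 65.9% of all 15223 genes tested passed (33.3% higher and 32.6% lower). The median log2 fold change of the list was 0.0026, beside -0.011 over all genes. Its median absolute log2 fold change was 0.32, beside 0.48 over all genes. Of the 8 ER genes, 3 rose, 1 fell and 4 did not pass, with a median of 0.085.

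The inhibitor groups, whose files share one naming style, were compared with each other in the fit of all 15 libraries. Its estimate of spread therefore also draws on FGF2/Activin and 2iLif. PD032+ Aurka inh had more Asns than PD032 and less Cebpb, Ddit4, Xbp1, Nupr1 and Gpt2. Of the ATF4-related genes, 3 rose, 9 fell and 17 did not pass, and of the ER genes 5 fell and 3 did not pass, where 43.7% of all genes passed (20.0% higher and 23.8% lower). The medians were -0.044 and -0.20, beside 0.01 over all genes. Same-numbered libraries of the inhibitor groups varied together, and with the replicate number as a block, in a fit of the inhibitor libraries alone, 7 ATF4-related genes were higher and 11 lower and 7 ER genes were lower, where 57.5% of all genes passed (28.0% higher and 29.6% lower). This fit is called the replicate block from here on. The 5 ER genes lower in this comparison became 3 in a fit of the inhibitor libraries without the block, and also without PD032+ Aurka inh replicate 1 or without PD032 replicate 2.

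Set against Aurka inh, PD032+ Aurka inh had more Atf5, Stc2, Asns and Chac1 and less Atf3 and Ddit4. Of the ATF4-related genes, 10 rose, 4 fell and 15 did not pass, and of the ER genes 3 fell and 5 did not pass, where 34.9% of all genes passed (18.6% higher and 16.3% lower). The medians were 0.11 and -0.07, beside 0.0056 over all genes. The 3 lower ER genes were Hspa5, Hsp90b1 and Dnajb9, and only 1 passed in a fit of the inhibitor libraries with no block, or without Aurka inh replicate 2, Aurka inh replicate 3 or PD032+ Aurka inh replicate 1. With the replicate block 14 ATF4-related genes were higher and 6 lower and 4 ER genes were lower, where 48.4% of all genes passed (23.9% higher and 24.5% lower).

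PD032 alone, set against Aurka inh alone, had more Gpt2, Xbp1, Nupr1, Atf5, Pycr1 and Vldlr and less Asns. Of the ATF4-related genes, 14 rose, 3 fell and 12 did not pass, where 45.5% of all genes passed (25.8% higher and 19.7% lower). Their median was 0.14, beside 0.022 over all genes. Of the ER genes, 2 rose and 6 did not pass (median 0.10). With the replicate block 20 ATF4-related genes were higher and 5 lower, and 3 ER genes were higher and 1 lower, where 58.3% of all genes passed (31.1% higher and 27.2% lower).

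Each inhibitor group was also set against 2iLif, and these comparisons share the 3 2iLif libraries with that of FGF2/Activin. In PD032+ Aurka inh, of the ATF4-related genes 13 rose, 2 fell and 14 did not pass (median 0.13), and of the ER genes 1 rose, 5 fell and 2 did not pass (median -0.33), where 47.6% of all genes passed, with 23.8% higher and 23.8% lower. In PD032, of the ATF4-related genes 15 rose, 2 fell and 12 did not pass (median 0.20), and of the ER genes 3 rose, 4 fell and 1 did not pass (median -0.10), where 63.0% of all genes passed, with 32.1% higher and 30.9% lower. In Aurka inh, of the ATF4-related genes 12 rose, 7 fell and 10 did not pass (median 0.076), and of the ER genes 1 rose, 3 fell and 4 did not pass (median -0.17), where 58.4% of all genes passed, with 28.9% higher and 29.5% lower. Over all genes the median was 0.014 in PD032+ Aurka inh, 0.008 in PD032 and 0.014 in Aurka inh. Scaling by library size alone called 26 ATF4-related genes in PD032, 24 of them higher, and turned the split in Aurka inh into 16 higher and 4 lower. This scaling also moved the median of all genes, by 0.073 in PD032 and 0.05 in Aurka inh. The higher share of all called genes went from 50.9% to 58.1% in PD032 and from 49.5% to 55.2% in Aurka inh. A fit of only the Aurka inh and 2iLif libraries gave 14 higher and 3 lower. The share of all genes in that fit is not given here.

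**Figure D2:**
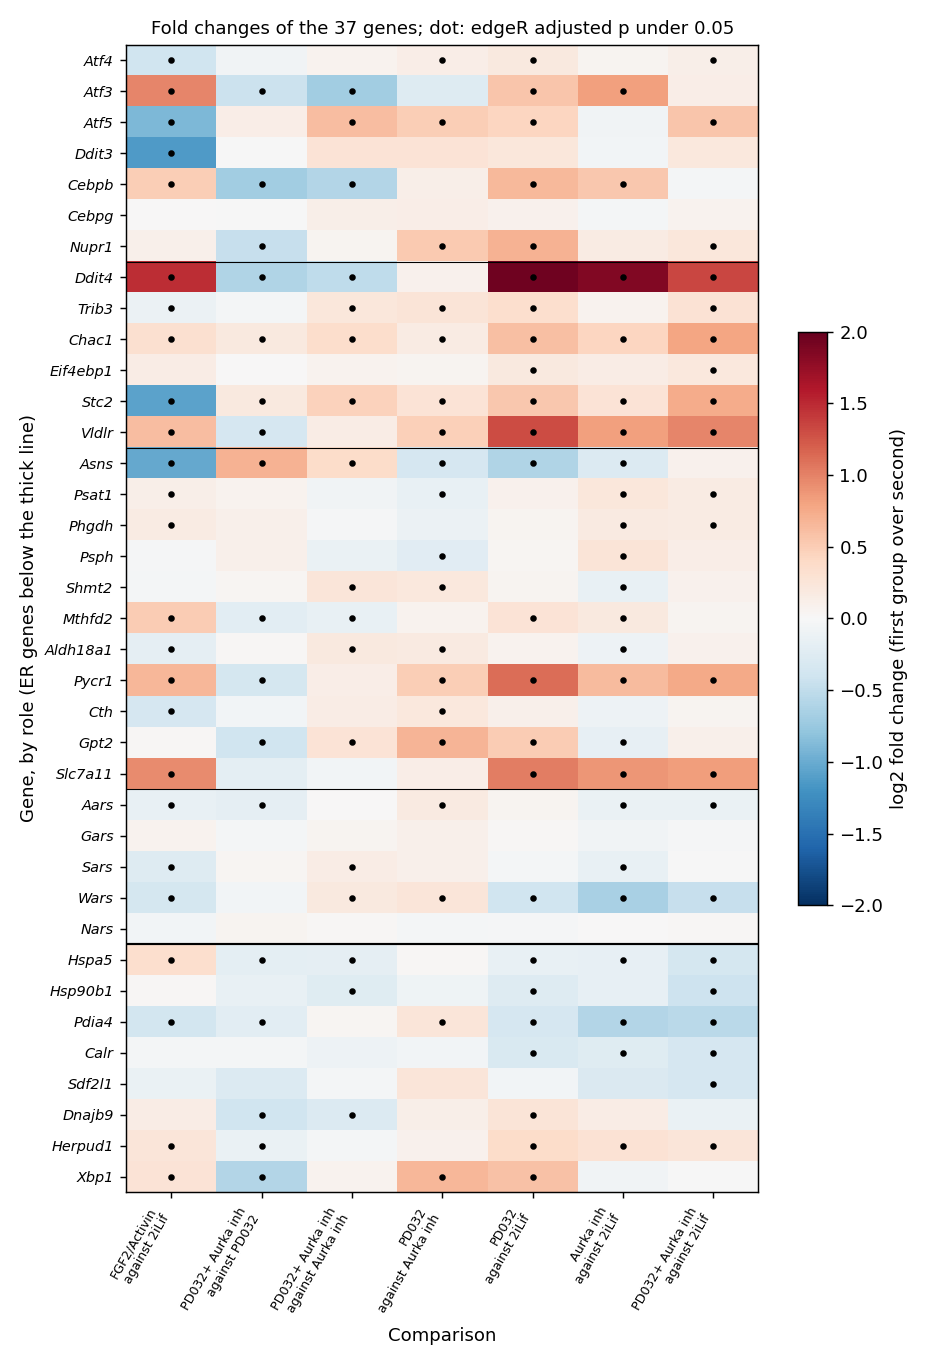
Log2 fold change of each of the 37 genes (rows, by role) in the 7 comparisons (columns), first group over second, with a dot where the edgeR adjusted p was under 0.05. Ddit4, Vldlr, Pycr1, Slc7a11 and Chac1 are red in all 4 comparisons with 2iLif, Wars and Pdia4 are blue there, and Asns is blue in all of these but PD032+ Aurka inh.

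Among the regulators, FGF2/Activin had the lowest Atf4, Atf5 and Ddit3, and PD032 had the highest mean of 5 of the 7. Atf4 had 275, 271 and 262 CPM in FGF2/Activin, 381, 374 and 400.4 in PD032+ Aurka inh and 399, 420.5 and 399 in PD032. It had 357, 378 and 371 CPM in Aurka inh, against 345, 353 and 365 in 2iLif. Each FGF2/Activin library lay below all others, and in the other cultures the libraries ranged from 345 to 421 CPM. The log2 fold change was -0.40 ± 0.045, adjusted p = 8.5e-07, in FGF2/Activin and 0.20 ± 0.044, adjusted p = 0.0012, in PD032, both against 2iLif. In PD032+ Aurka inh it was 0.12 ± 0.044, adjusted p = 0.037, a call lost without 2iLif replicate 1 (adjusted p = 0.18), without 2iLif replicate 2 (adjusted p = 0.13), without PD032+ Aurka inh replicate 1 (adjusted p = 0.071) or without PD032+ Aurka inh replicate 3 (adjusted p = 0.16), and with no filter on low counts (0.13, adjusted p = 0.11). In Aurka inh, at 0.056 ± 0.044, adjusted p = 0.29, it did not pass. Between PD032+ Aurka inh and PD032 the difference was -0.076 ± 0.044, adjusted p = 0.18, and -0.082, adjusted p = 0.041 with the replicate block.

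Atf5, a paralogue of Atf4 that is also translated under stress, had 50.8, 49.5 and 52.8 CPM in FGF2/Activin, 140.2, 136 and 143 in PD032+ Aurka inh and 124, 137 and 122 in PD032. It had 91.3, 86.1 and 95.4 CPM in Aurka inh, against 91.2, 95.3 and 99.5 in 2iLif. The libraries of PD032+ Aurka inh and PD032 were the high ones, those of Aurka inh and 2iLif overlapped, and those of FGF2/Activin were the lowest. Its log2 fold change against 2iLif was -0.90 ± 0.059, adjusted p = 1.1e-09, in FGF2/Activin, 0.55 ± 0.056, adjusted p = 8.7e-07, in PD032+ Aurka inh and 0.42 ± 0.056, adjusted p = 7.6e-06, in PD032. Against Aurka inh it was 0.62 ± 0.056, adjusted p = 5.4e-07, in PD032+ Aurka inh and 0.49 ± 0.056, adjusted p = 3.1e-06, in PD032.

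Ddit3, which encodes CHOP, a C/EBP family factor tied to cell death under prolonged stress, was scarce. It had 5.96, 6.89 and 7.67 CPM in FGF2/Activin, 17.8, 18.9 and 16.1 in PD032+ Aurka inh and 17.6, 17.2 and 18.1 in PD032. It had 12.3, 17.7 and 14.0 CPM in Aurka inh, against 14.4, 14.5 and 16.4 in 2iLif. The FGF2/Activin libraries were all below the rest, with a log2 fold change against 2iLif of -1.14 ± 0.13, adjusted p = 1.3e-06, and the inhibitor groups did not pass against 2iLif. A second annotated gene of the same name and Mars overlap it, so its count is uncertain. Among the inhibitor groups, Ddit3 was at 0.27 ± 0.12, adjusted p = 0.089, in PD032+ Aurka inh against Aurka inh (0.26, adjusted p = 0.034 with the replicate block), and at 0.28 ± 0.12, adjusted p = 0.066, in PD032 against Aurka inh (0.28, adjusted p = 0.019 with the replicate block).

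Atf3, a stress factor downstream of ATF4, went the other way in FGF2/Activin. It had 27.1, 26.4 and 28.3 CPM in FGF2/Activin, 14.7, 13.8 and 16.8 in PD032+ Aurka inh and 19.8, 18.7 and 22.3 in PD032. It had 25.3, 19.1 and 28.7 CPM in Aurka inh, against 14.7, 12.2 and 14.6 in 2iLif. Libraries of FGF2/Activin, PD032 and Aurka inh were above those of 2iLif, and those of PD032+ Aurka inh overlapped with 2iLif. The log2 fold change against 2iLif was 0.98 ± 0.13, adjusted p = 5.9e-06, in FGF2/Activin, 0.56 ± 0.13, adjusted p = 0.0016, in PD032 and 0.82 ± 0.13, adjusted p = 5.3e-05, in Aurka inh. In PD032+ Aurka inh it was -0.69 ± 0.13, adjusted p = 0.00046, against Aurka inh and -0.43 ± 0.13, adjusted p = 0.012, against PD032, the second lost without PD032 replicate 3 (adjusted p = 0.063).

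Cebpb, a C/EBP factor that can pair with ATF4, had 28.1, 26.7 and 25.4 CPM in FGF2/Activin, 20.1, 14.0 and 21.4 in PD032+ Aurka inh and 29.8, 30.1 and 30.2 in PD032. It had 28.9, 19.6 and 34.4 CPM in Aurka inh, against 20.6, 20.4 and 16.3 in 2iLif. It was at -0.69 ± 0.17, adjusted p = 0.0029, in PD032+ Aurka inh against PD032, with libraries that did not overlap, and replicate 2 was the lowest of its group in both PD032+ Aurka inh and Aurka inh. Nupr1, a small chromatin-associated stress protein, had 103, 92.2 and 103 CPM in FGF2/Activin, 98.1, 116 and 112 in PD032+ Aurka inh and 136, 171 and 141 in PD032. It had 93.7, 116 and 104 CPM in Aurka inh, against 92.6, 94.0 and 91.5 in 2iLif. The PD032 libraries were the 3 highest, with 0.69 ± 0.091, adjusted p = 7.1e-06, against 2iLif, 0.52 ± 0.09, adjusted p = 0.00021, against Aurka inh and -0.46 ± 0.09, adjusted p = 0.00062, in PD032+ Aurka inh against PD032. Cebpg, another C/EBP partner, did not pass in any of the 7 comparisons (log2 fold changes -0.035 to 0.13, unadjusted p under 0.05 in 2 of 7), though PD032 against Aurka inh reached 0.11, adjusted p = 0.028 with the replicate block.

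The feedback and other stress targets held the largest log2 fold change of the 37 genes, that of Ddit4. Ddit4 (ENSMUSG00000020108, chr10:59949669-59951834, minus strand in GENCODE M21 on GRCm38) encodes REDD1, an inhibitor of the growth kinase complex mTORC1. It had 531, 525 and 547 CPM in FGF2/Activin, 517, 457 and 480.5 in PD032+ Aurka inh and 784, 660.3 and 756 in PD032. It had 717, 631 and 720.3 CPM in Aurka inh, against 191, 176 and 207 in 2iLif. All 12 libraries of the other cultures lay above all 3 of 2iLif. Against 2iLif its log2 fold change was 1.48 ± 0.076 in FGF2/Activin, 1.34 ± 0.076 in PD032+ Aurka inh, 1.94 ± 0.077 in PD032 and 1.85 ± 0.076 in Aurka inh, with a highest adjusted p of 7.6e-10. The libraries of PD032 and Aurka inh overlapped, with PD032 at 0.089 ± 0.073, adjusted p = 0.35, against Aurka inh and 0.078, adjusted p = 0.047 with the replicate block. PD032+ Aurka inh was lower than both, at -0.60 ± 0.074, adjusted p = 6.6e-06, against PD032 and -0.51 ± 0.074, adjusted p = 5.6e-05, against Aurka inh.

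Chac1, an enzyme that degrades glutathione, had 147, 146 and 146 CPM in FGF2/Activin, 213, 202 and 192 in PD032+ Aurka inh and 188, 165 and 179.5 in PD032. It had 171, 154 and 149.8 CPM in Aurka inh, against 111, 115 and 125 in 2iLif. Again no library overlapped with 2iLif, and the fold changes against it were 0.32 ± 0.065 in FGF2/Activin, 0.79 ± 0.064 in PD032+ Aurka inh, 0.60 ± 0.064 in PD032 and 0.44 ± 0.065 in Aurka inh, with a highest adjusted p of 0.00034. PD032+ Aurka inh was above Aurka inh by 0.36 ± 0.063, adjusted p = 0.00039. Vldlr, a lipoprotein receptor, had 80.1, 80.5 and 81.6 CPM in FGF2/Activin, 109.8, 94.1 and 108 in PD032+ Aurka inh and 133, 122 and 137 in PD032. It had 104, 77.5 and 98.9 CPM in Aurka inh, against 54.7, 50.6 and 52.9 in 2iLif. Its fold changes against 2iLif were 0.61 ± 0.092 in FGF2/Activin, 0.98 ± 0.091 in PD032+ Aurka inh, 1.31 ± 0.091 in PD032 and 0.83 ± 0.091 in Aurka inh, with a highest adjusted p of 1.9e-05. The 3 PD032 libraries were the highest, and PD032+ Aurka inh was at -0.33 ± 0.087, adjusted p = 0.0054, against PD032.

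Stc2, a secreted glycoprotein, separated the cultures in another order. It had 72.0, 71.0 and 75.3 CPM in FGF2/Activin, 270.3, 235 and 255 in PD032+ Aurka inh and 230.0, 214 and 222 in PD032. It had 187, 188 and 178 CPM in Aurka inh, against 152, 149 and 155 in 2iLif. No group overlapped with another, from PD032+ Aurka inh as the highest through PD032, Aurka inh and 2iLif to FGF2/Activin. The log2 fold changes against 2iLif were -1.06 ± 0.055 in FGF2/Activin, 0.74 ± 0.053 in PD032+ Aurka inh, 0.55 ± 0.053 in PD032 and 0.28 ± 0.053 in Aurka inh, with a highest adjusted p of 0.00029. Trib3, a pseudokinase that restrains ATF4 and CHOP, had 172, 171 and 174 CPM in FGF2/Activin, 232, 219.8 and 239 in PD032+ Aurka inh and 232, 240.1 and 240.2 in PD032. It had 201, 197 and 195 CPM in Aurka inh, against 184, 191 and 188 in 2iLif. It rose in PD032+ Aurka inh (0.30 ± 0.041, adjusted p = 2.3e-05) and PD032 (0.34 ± 0.041, adjusted p = 2.5e-06) against 2iLif. In FGF2/Activin it was at -0.12 ± 0.042, adjusted p = 0.017, which was lost without FGF2/Activin replicate 2 (adjusted p = 0.056), with library size alone (-0.084, adjusted p = 0.083) and with no filter on low counts (-0.13, adjusted p = 0.095). Eif4ebp1, a translation repressor, ranged only from 405 to 527 CPM over all libraries.

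**Figure D3:**
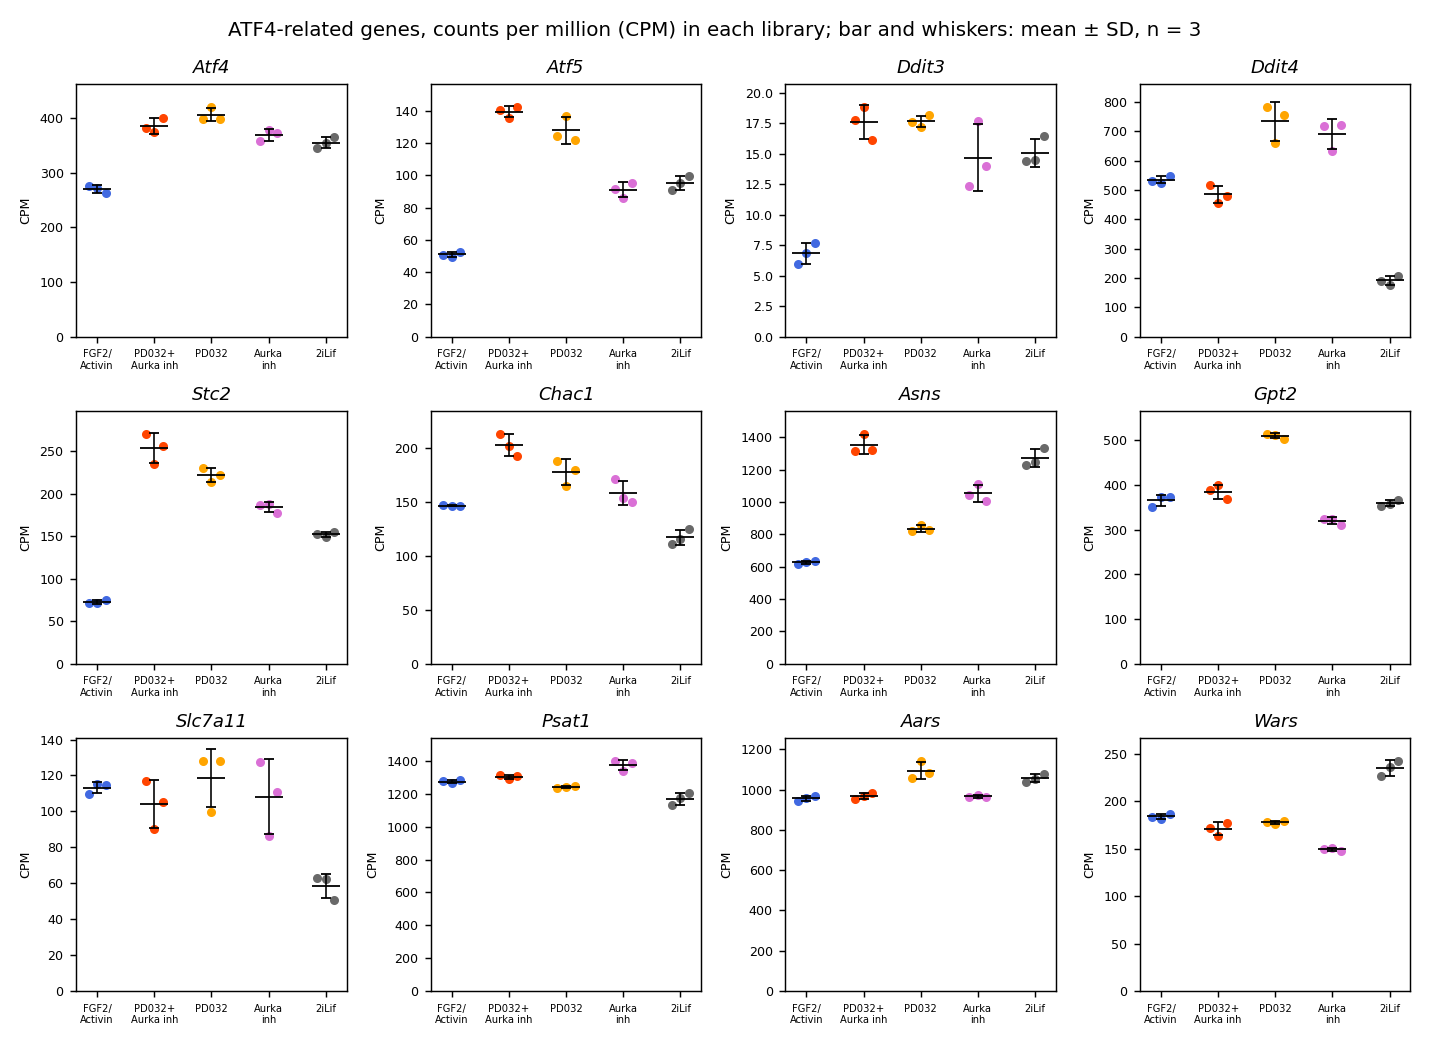
CPM of 12 ATF4-related genes in every library (points) with the group mean ± SD (n = 3), for FGF2/Activin, PD032+ Aurka inh, PD032, Aurka inh and 2iLif from left to right, each axis starting at 0. FGF2/Activin is low in Atf4, Atf5, Ddit3, Stc2 and Asns, while 2iLif is low in Ddit4, Chac1 and Slc7a11.

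In the amino acid, one-carbon and transport group, Asns (ENSMUSG00000029752, chr6:7675169-7693254, minus strand), which makes asparagine from aspartate, varied in a pattern of its own. It had 617, 631 and 635 CPM in FGF2/Activin, 1316, 1422 and 1325 in PD032+ Aurka inh and 821, 861 and 827 in PD032. It had 1041, 1112 and 1008 CPM in Aurka inh, against 1231, 1246 and 1334 in 2iLif. The libraries of FGF2/Activin were the lowest, then those of PD032, then those of Aurka inh, and those of PD032+ Aurka inh and 2iLif overlapped at the top. Against 2iLif the log2 fold change was -1.02 ± 0.05, adjusted p = 3.3e-11, in FGF2/Activin, 0.092 ± 0.049, adjusted p = 0.14, in PD032+ Aurka inh, -0.60 ± 0.049, adjusted p = 2.6e-08, in PD032 and -0.27 ± 0.049, adjusted p = 0.0002, in Aurka inh. PD032+ Aurka inh was above PD032 by 0.70 ± 0.049, adjusted p = 1.3e-08, and above Aurka inh by 0.36 ± 0.049, adjusted p = 3.2e-05. PD032 was at -0.33 ± 0.049, adjusted p = 4.2e-05, against Aurka inh.

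Gpt2, the mitochondrial alanine transaminase, was highest in PD032. It had 352, 374 and 373 CPM in FGF2/Activin, 388, 399.5 and 368 in PD032+ Aurka inh and 515, 511 and 504 in PD032. It had 325, 324 and 311 CPM in Aurka inh, against 353, 358 and 366 in 2iLif. No PD032 library overlapped with any other group, and the log2 fold change was 0.67 ± 0.043, adjusted p = 4.2e-09, against Aurka inh, 0.51 ± 0.043, adjusted p = 4.5e-08, against 2iLif and -0.40 ± 0.043, adjusted p = 1.4e-06, in PD032+ Aurka inh against PD032. Pycr1, the last enzyme of proline synthesis, had 108, 112 and 114 CPM in FGF2/Activin, 127, 116 and 116 in PD032+ Aurka inh and 160.5, 146 and 151 in PD032. It had 115, 108 and 103 CPM in Aurka inh, against 69.0, 67.9 and 74.0 in 2iLif. All other cultures were above 2iLif, by 0.67 ± 0.059 in FGF2/Activin, 0.76 ± 0.059 in PD032+ Aurka inh, 1.12 ± 0.059 in PD032 and 0.63 ± 0.059 in Aurka inh, with a highest adjusted p of 1.7e-07. It was lower in PD032+ Aurka inh than in PD032 (-0.35 ± 0.057, adjusted p = 0.0001).

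Slc7a11 had 109.5, 115 and 115 CPM in FGF2/Activin, 117, 90.0 and 105 in PD032+ Aurka inh and 128, 99.8 and 128 in PD032. It had 128, 86.3 and 111 CPM in Aurka inh, against 62.8, 62.1 and 50.9 in 2iLif. Every library of the other 4 cultures was above the 3 of 2iLif, and replicate 2 was the lowest in each inhibitor group. The fold changes against 2iLif were 0.95 ± 0.14 in FGF2/Activin, 0.83 ± 0.13 in PD032+ Aurka inh, 1.02 ± 0.13 in PD032 and 0.89 ± 0.13 in Aurka inh, with a highest adjusted p of 0.0001. Among the inhibitor groups it passed only with the replicate block, and not in PD032+ Aurka inh against Aurka inh. That comparison was at -0.059, adjusted p = 0.77, and -0.071, adjusted p = 0.22 with the replicate block. PD032+ Aurka inh against PD032 was at -0.19 ± 0.13, adjusted p = 0.26, and -0.20, adjusted p = 0.0012 with the replicate block. PD032 against Aurka inh was at 0.13 ± 0.13, adjusted p = 0.44, and 0.13, adjusted p = 0.024 with the replicate block.

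Mthfd2, a mitochondrial folate enzyme, had 412, 419 and 419 CPM in FGF2/Activin, 300.4, 310.1 and 298 in PD032+ Aurka inh and 331, 380.5 and 344 in PD032. It had 321, 350.1 and 336 CPM in Aurka inh, against 293, 293 and 290.5 in 2iLif. FGF2/Activin was the highest, at 0.51 ± 0.051, adjusted p = 1.7e-07, and PD032 (0.27 ± 0.05, adjusted p = 0.00023) and Aurka inh (0.20 ± 0.05, adjusted p = 0.0029) also rose. The serine synthesis genes Psat1, Phgdh and Psph and the serine converting enzyme Shmt2 moved little. Psat1 was highest in Aurka inh, at 1377 ± 31.9 CPM, against 1170.4 ± 35.2 CPM in 2iLif (0.23 ± 0.038, adjusted p = 6.4e-05), and Phgdh, the first enzyme of the pathway, had 382 ± 13.4 CPM in Aurka inh, against 337 ± 17.7 CPM in 2iLif (0.18 ± 0.052, adjusted p = 0.0075). Counts of Phgdh could be shared with the pseudogene Phgdh-ps1. Shmt2, Aldh18a1 (the first step of proline synthesis) and Cth (which makes cysteine from cystathionine) had group means within 1.36 times of each other, and Cth fell in FGF2/Activin (-0.33 ± 0.07, adjusted p = 0.00053).

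Of the tRNA synthetases, which charge tRNAs with amino acids, Nars and Gars did not pass in any of the 7 comparisons (unadjusted p under 0.05 in 0 of 7 for Nars and 1 of 7 for Gars), except that Gars in PD032 against Aurka inh reached 0.089, adjusted p = 0.019 with the replicate block. Wars, for tryptophan, had 184, 181 and 187 CPM in FGF2/Activin, 172, 163 and 177 in PD032+ Aurka inh and 178, 176 and 179 in PD032. It had 149.8, 151 and 148 CPM in Aurka inh, against 226, 236 and 242 in 2iLif. It was highest in 2iLif, and its log2 fold changes against 2iLif were -0.35 ± 0.043 in FGF2/Activin, -0.46 ± 0.042 in PD032+ Aurka inh, -0.40 ± 0.042 in PD032 and -0.65 ± 0.043 in Aurka inh, with a highest adjusted p of 1.8e-06. Aars, for alanine, whose promoter holds a CARE match, had 944, 958 and 967 CPM in FGF2/Activin, 954, 968 and 986 in PD032+ Aurka inh and 1059, 1143 and 1083 in PD032. It had 964, 973 and 962 CPM in Aurka inh, against 1040.0, 1056 and 1079 in 2iLif. Its changes were small, with 0.18 ± 0.04, adjusted p = 0.0015, in PD032 against Aurka inh, -0.18 ± 0.04, adjusted p = 0.0018, in PD032+ Aurka inh against PD032 and -0.15 ± 0.04, adjusted p = 0.0041, in FGF2/Activin against 2iLif. Sars, for serine, fell in FGF2/Activin (-0.26 ± 0.053, adjusted p = 0.00045).

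Of the 6 ER chaperones, 1 rose, 1 fell and 4 did not pass in FGF2/Activin, 5 fell and 1 did not pass in PD032+ Aurka inh, 1 rose, 4 fell and 1 did not pass in PD032 and 3 fell and 3 did not pass in Aurka inh, each against 2iLif. Of all genes, the share that passed was 65.9% in FGF2/Activin, 47.6% in PD032+ Aurka inh, 63.0% in PD032 and 58.4% in Aurka inh, and the share that fell was 32.6% in FGF2/Activin, 23.8% in PD032+ Aurka inh, 30.9% in PD032 and 29.5% in Aurka inh. Hspa5 (ENSMUSG00000026864, chr2:34771970-34777547, plus strand) encodes BiP, the main Hsp70 of the ER lumen, and had 1026, 1002 and 993 CPM in FGF2/Activin, 584, 641 and 656 in PD032+ Aurka inh and 660.2, 769 and 729.7 in PD032. It had 667, 716 and 742 CPM in Aurka inh, against 781, 794 and 817 in 2iLif. Each FGF2/Activin library was above every other library and each PD032+ Aurka inh library was below every 2iLif library. Against 2iLif the log2 fold change was 0.34 ± 0.059, adjusted p = 0.0001, in FGF2/Activin and -0.35 ± 0.059, adjusted p = 0.00017, in PD032+ Aurka inh. In PD032, at -0.15 ± 0.059, adjusted p = 0.04, the call was lost without 2iLif replicate 3 (adjusted p = 0.081), without PD032 replicate 1 (adjusted p = 0.21) or without PD032 replicate 3 (adjusted p = 0.066). Without PD032 replicate 1 the log2 fold change was -0.089, adjusted p = 0.21. Scaling by library size alone gave -0.075, adjusted p = 0.26, and a fit of only the PD032 and 2iLif libraries gave -0.12, adjusted p = 0.097. In Aurka inh, at -0.17 ± 0.059, adjusted p = 0.022, it was lost without 2iLif replicate 2 (adjusted p = 0.066), without 2iLif replicate 3 (adjusted p = 0.11) or without Aurka inh replicate 1 (adjusted p = 0.095), with library size alone (-0.12, adjusted p = 0.077) and in a fit of only these 2 groups (-0.13, adjusted p = 0.08). PD032+ Aurka inh was at -0.20 ± 0.059, adjusted p = 0.013, against PD032, which was lost without PD032 replicate 2 (adjusted p = 0.056) or without PD032+ Aurka inh replicate 1 (adjusted p = 0.096).

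Pdia4, a disulfide isomerase, had 226, 228 and 221 CPM in FGF2/Activin, 183, 213 and 204 in PD032+ Aurka inh and 215, 258 and 219.8 in PD032. It had 187, 201 and 196 CPM in Aurka inh, against 289, 288 and 295 in 2iLif. It was highest in 2iLif with no overlap, and its log2 fold changes against 2iLif were -0.37 ± 0.066 in FGF2/Activin, -0.54 ± 0.066 in PD032+ Aurka inh, -0.33 ± 0.066 in PD032 and -0.58 ± 0.066 in Aurka inh, with a highest adjusted p of 0.00039. Calr, a calcium-binding lectin chaperone, had 742, 732 and 742 CPM in FGF2/Activin, 592, 616 and 591 in PD032+ Aurka inh and 599, 640.1 and 609 in PD032. It had 631, 626 and 668 CPM in Aurka inh, against 727, 748 and 796 in 2iLif. The 3 inhibitor groups lay below 2iLif, at -0.34 ± 0.046 in PD032+ Aurka inh, -0.30 ± 0.046 in PD032 and -0.24 ± 0.046 in Aurka inh, with a highest adjusted p of 0.00031, and FGF2/Activin did not pass (-0.035 ± 0.046, adjusted p = 0.51). Its count could be shared with the pseudogene Calr-ps. Calr and Hspa5 carry the ERSE shown above, and so does Hsp90b1.

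Hsp90b1, the Hsp90 of the ER, had 843, 841 and 850.2 CPM in FGF2/Activin, 551, 684 and 641 in PD032+ Aurka inh and 635, 764 and 690.5 in PD032. It had 667, 768 and 776 CPM in Aurka inh, against 847, 833 and 811 in 2iLif. Against 2iLif it was at 0.025 ± 0.078, adjusted p = 0.79, in FGF2/Activin, -0.41 ± 0.079, adjusted p = 0.00048, in PD032+ Aurka inh, -0.25 ± 0.078, adjusted p = 0.01, in PD032 and -0.17 ± 0.078, adjusted p = 0.072, in Aurka inh. The PD032 call was lost without PD032 replicate 1 (adjusted p = 0.061). Replicate 1 was the lowest library in each inhibitor group. PD032+ Aurka inh against PD032 was at -0.16 ± 0.078, adjusted p = 0.12, and -0.16, adjusted p = 0.00039 with the replicate block.

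Dnajb9, the co-chaperone ERdj4 and a target of XBP1, was lower in PD032+ Aurka inh than in PD032 or Aurka inh. It had 15.9, 18.1 and 18.01 CPM in FGF2/Activin, 14.5, 13.6 and 14.8 in PD032+ Aurka inh and 18.5, 19.2 and 18.8 in PD032. It had 17.5, 16.9 and 17.6 CPM in Aurka inh, against 16.6, 16.4 and 14.0 in 2iLif. All 3 PD032+ Aurka inh libraries lay below those of PD032 and Aurka inh, at -0.40 ± 0.08, adjusted p = 0.00072, against PD032 and -0.28 ± 0.081, adjusted p = 0.013, against Aurka inh. The second call was lost with limma voom and with no filter on low counts (highest adjusted p = 0.084). Against 2iLif, PD032+ Aurka inh did not pass (-0.14 ± 0.083, adjusted p = 0.19). PD032 was higher than 2iLif (0.26 ± 0.081, adjusted p = 0.01), a call lost without 2iLif replicate 3 (adjusted p = 0.089). Sdf2l1, an ER resident factor, had 23.0 to 39.2 CPM over all libraries.

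Of the other ER genes, Xbp1 was highest in PD032 and Herpud1 was lowest in 2iLif. Xbp1, whose mRNA is spliced by IRE1 into the code for an active factor, had 101, 99.3 and 97.9 CPM in FGF2/Activin, 82.4, 83.7 and 78.6 in PD032+ Aurka inh and 118, 128 and 123 in PD032. It had 78.9, 79.1 and 75.9 CPM in Aurka inh, against 83.1, 84.4 and 78.0 in 2iLif. The PD032 libraries stood above all the others and those of FGF2/Activin came next, while PD032+ Aurka inh, Aurka inh and 2iLif lay together. The log2 fold change was 0.66 ± 0.049, adjusted p = 2.0e-08, in PD032 against Aurka inh, -0.59 ± 0.048, adjusted p = 6.7e-08, in PD032+ Aurka inh against PD032, 0.59 ± 0.049, adjusted p = 3.2e-08, in PD032 against 2iLif and 0.28 ± 0.049, adjusted p = 0.0001, in FGF2/Activin against 2iLif. Gene counts hold spliced and unspliced Xbp1 together. Herpud1, a membrane protein of ER-associated degradation, had 89.1, 91.3 and 88.3 CPM in FGF2/Activin, 91.8, 89.3 and 88.3 in PD032+ Aurka inh and 96.1, 97.1 and 101 in PD032. It had 93.4, 89.3 and 94.5 CPM in Aurka inh, against 74.5, 75.8 and 76.9 in 2iLif. It was lowest in 2iLif with no overlap, and its fold changes against 2iLif were 0.24 ± 0.044 in FGF2/Activin, 0.25 ± 0.044 in PD032+ Aurka inh, 0.37 ± 0.044 in PD032 and 0.29 ± 0.044 in Aurka inh, with a highest adjusted p of 0.00026.

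**Figure D4:**
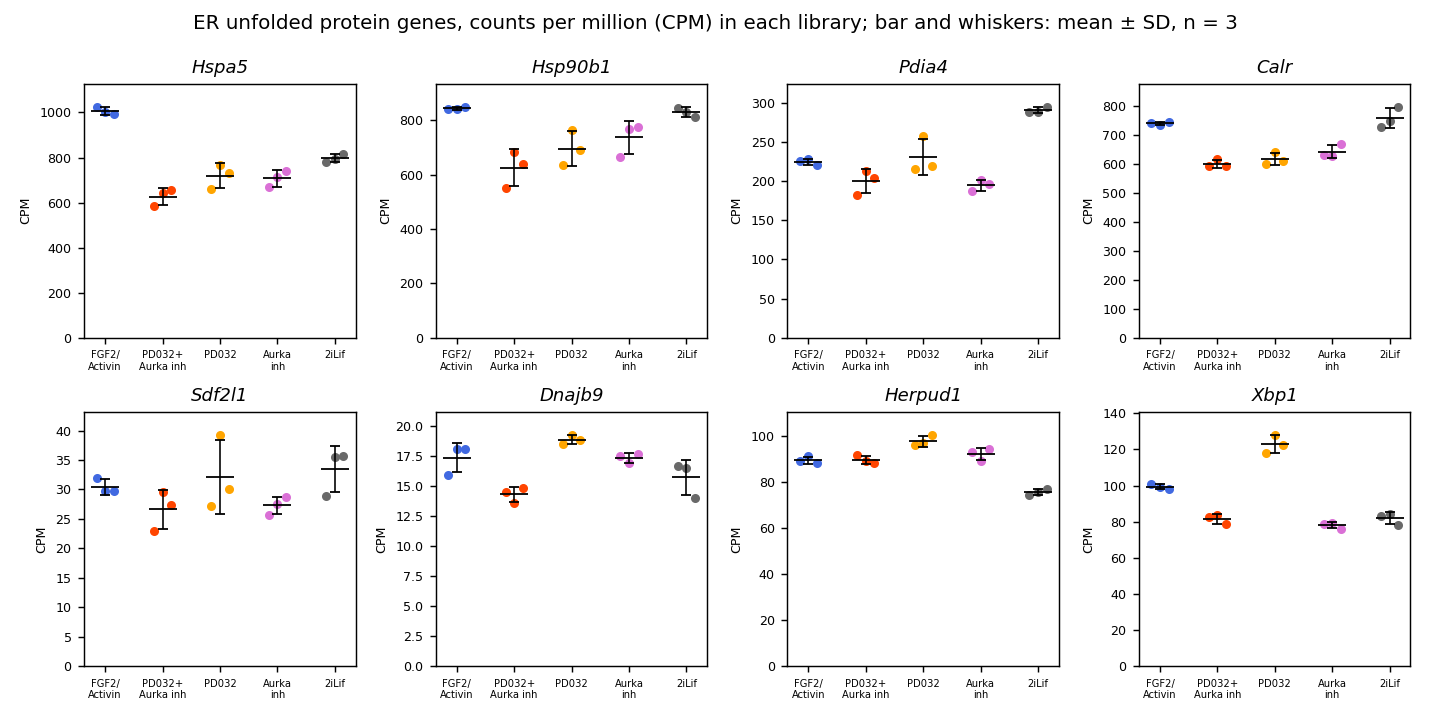
CPM of the 8 ER genes in every library (points) with the group mean ± SD (n = 3), for FGF2/Activin, PD032+ Aurka inh, PD032, Aurka inh and 2iLif from left to right, each axis starting at 0. Pdia4 is highest in 2iLif, Hspa5 in FGF2/Activin and Xbp1 in PD032, and Herpud1 is lowest in 2iLif.

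The 11 amino acid genes and the 6 ER chaperones were set side by side in every library, as the median of each gene's log2 CPM minus its mean over the 15 libraries. The amino acid genes had medians of -0.033, -0.032 and -0.015 in FGF2/Activin, 0.10, 0.086 and 0.082 in PD032+ Aurka inh, 0.04, 0.13 and 0.028 in PD032, 0.0095, 0.055 and -0.0045 in Aurka inh and -0.12, -0.10 and -0.05 in 2iLif. The chaperones had 0.13, 0.13 and 0.14 in FGF2/Activin, -0.34, -0.12 and -0.17 in PD032+ Aurka inh, -0.14, 0.12 and -0.049 in PD032, -0.17, -0.09 and -0.018 in Aurka inh and 0.08, 0.17 and 0.19 in 2iLif. Amino acid genes minus chaperones came to -0.16, -0.16 and -0.15 in FGF2/Activin, 0.44, 0.20 and 0.25 in PD032+ Aurka inh, 0.18, 0.0065 and 0.077 in PD032, 0.18, 0.15 and 0.013 in Aurka inh and -0.20, -0.26 and -0.24 in 2iLif. It was above 0 in all 9 inhibitor libraries and below 0 in the other 6, so this split falls exactly along the file naming styles and cannot be told apart from them. Among the inhibitor libraries the 3 of PD032+ Aurka inh were the highest.

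**Figure D5:**
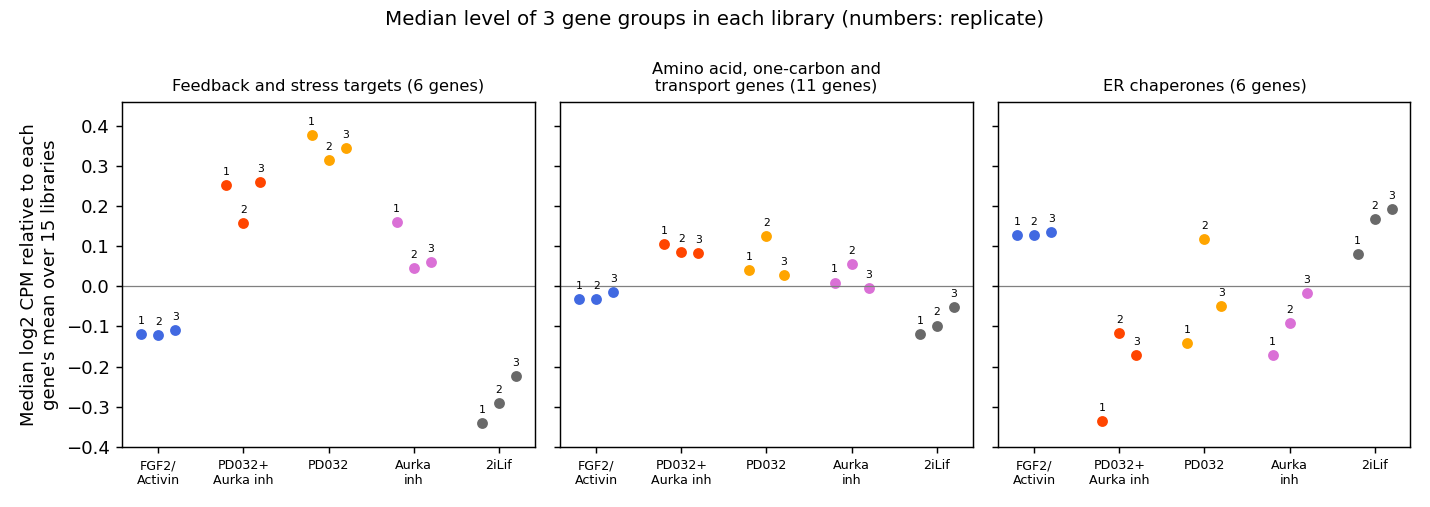
Median log2 CPM, relative to each gene's mean over the 15 libraries, of 6 feedback and stress targets, 11 amino acid genes and 6 ER chaperones, with 1 point per library (numbers are replicates). Stress targets are lowest in 2iLif, and chaperones are highest in FGF2/Activin and 2iLif except for PD032 replicate 2, which reaches 0.12.

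Other genes of the same pathways were counted from lists of known pathway members. Among amino acid transporters, Slc38a2 rose in all 4 comparisons with 2iLif and Slc7a1 fell in 3. Of 16 further ATF4 targets and transporters, 6 rose, 7 fell and 3 did not pass in FGF2/Activin, 6 rose and 10 did not pass in PD032+ Aurka inh, 9 rose, 3 fell and 4 did not pass in PD032 and 4 rose, 6 fell and 6 did not pass in Aurka inh, each against 2iLif. Over all genes 33.3% in FGF2/Activin, 23.8% in PD032+ Aurka inh, 32.1% in PD032 and 28.9% in Aurka inh rose, and 32.6% in FGF2/Activin, 23.8% in PD032+ Aurka inh, 30.9% in PD032 and 29.5% in Aurka inh fell. Slc38a2, a neutral amino acid transporter, had log2 fold changes of 1.00 ± 0.055 in FGF2/Activin, 0.86 ± 0.055 in PD032+ Aurka inh, 1.28 ± 0.055 in PD032 and 1.09 ± 0.055 in Aurka inh, with a highest adjusted p of 3.6e-09. Slc7a1, a cationic amino acid transporter, was at -0.76 ± 0.069, adjusted p = 6.5e-08, in FGF2/Activin, -0.03 ± 0.069, adjusted p = 0.75, in PD032+ Aurka inh, -0.29 ± 0.069, adjusted p = 0.0015, in PD032 and -0.78 ± 0.069, adjusted p = 8.7e-08, in Aurka inh. Sesn2, a stress-induced regulator of mTORC1, fell in FGF2/Activin (-0.32 ± 0.081, adjusted p = 0.0022) and rose in PD032+ Aurka inh (0.35 ± 0.08, adjusted p = 0.002), PD032 (0.39 ± 0.08, adjusted p = 0.00052) and Aurka inh (0.21 ± 0.08, adjusted p = 0.032), the last lost without 2iLif replicate 1 (adjusted p = 0.084), Aurka inh replicate 1 (adjusted p = 0.16) or Aurka inh replicate 3 (adjusted p = 0.078). Among the inhibitor groups, 10 rose and 6 did not pass in PD032 against Aurka inh, 2 rose, 3 fell and 11 did not pass in PD032+ Aurka inh against PD032 and 8 rose, 1 fell and 7 did not pass in PD032+ Aurka inh against Aurka inh, where the share of all genes that passed was 45.5% in PD032 against Aurka inh, 43.7% in PD032+ Aurka inh against PD032 and 34.9% in PD032+ Aurka inh against Aurka inh.

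Of 15 further tRNA synthetases, 2 rose, 5 fell and 8 did not pass in FGF2/Activin, 5 fell and 10 did not pass in PD032+ Aurka inh, 2 rose, 8 fell and 5 did not pass in PD032 and 1 rose, 5 fell and 9 did not pass in Aurka inh, against 2iLif, beside lower shares over all genes of 32.6% in FGF2/Activin, 23.8% in PD032+ Aurka inh, 30.9% in PD032 and 29.5% in Aurka inh. The glutamine enzyme Qars had -0.88 ± 0.043 in FGF2/Activin, -0.52 ± 0.043 in PD032+ Aurka inh, -0.94 ± 0.043 in PD032 and -0.72 ± 0.043 in Aurka inh, with a highest adjusted p of 6.1e-08. Of 8 eIF2 kinases and partners, 1 rose, 4 fell and 3 did not pass in FGF2/Activin, 4 fell and 4 did not pass in PD032+ Aurka inh, 2 fell and 6 did not pass in PD032 and 1 rose, 5 fell and 2 did not pass in Aurka inh, where 65.9% in FGF2/Activin, 47.6% in PD032+ Aurka inh, 63.0% in PD032 and 58.4% in Aurka inh of all genes passed. Eif2ak4, which encodes GCN2, was at -0.18 ± 0.066, adjusted p = 0.022, in FGF2/Activin, -0.26 ± 0.065, adjusted p = 0.004, in PD032+ Aurka inh, -0.09 ± 0.064, adjusted p = 0.24, in PD032 and -0.33 ± 0.065, adjusted p = 0.00038, in Aurka inh. The FGF2/Activin call was lost without FGF2/Activin replicate 1 (adjusted p = 0.056) or FGF2/Activin replicate 3 (adjusted p = 0.062), with library size alone (-0.14, adjusted p = 0.078) and with no filter on low counts (-0.19, adjusted p = 0.055).

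Of 16 further ER folding genes, 4 rose, 3 fell and 9 did not pass in FGF2/Activin, 9 fell and 7 did not pass in PD032+ Aurka inh, 4 rose, 8 fell and 4 did not pass in PD032 and 11 fell and 5 did not pass in Aurka inh, against 2iLif. Of all genes 65.9% in FGF2/Activin, 47.6% in PD032+ Aurka inh, 63.0% in PD032 and 58.4% in Aurka inh passed, and 32.6% in FGF2/Activin, 23.8% in PD032+ Aurka inh, 30.9% in PD032 and 29.5% in Aurka inh fell. The median log2 fold change was -0.052 in FGF2/Activin, -0.21 in PD032+ Aurka inh, -0.20 in PD032 and -0.26 in Aurka inh, where the median of all genes was -0.011 in FGF2/Activin and at most 0.014 in the inhibitor groups. Hyou1, an Hsp70 relative that works with BiP, was at -0.054 ± 0.053, adjusted p = 0.39, in FGF2/Activin, -0.73 ± 0.053, adjusted p = 1.6e-08, in PD032+ Aurka inh, -0.52 ± 0.053, adjusted p = 3.7e-07, in PD032 and -0.62 ± 0.053, adjusted p = 5.8e-08, in Aurka inh. Derl3, a component of ER-associated degradation, rose in FGF2/Activin (1.64 ± 0.14, adjusted p = 4.1e-08) and PD032 (0.65 ± 0.15, adjusted p = 0.0012) and fell in PD032+ Aurka inh (-0.42 ± 0.16, adjusted p = 0.041), and in Aurka inh it did not pass (0.064 ± 0.16, adjusted p = 0.75). The PD032+ Aurka inh call of Derl3 was lost with library size alone, DESeq2, limma voom, no filter and only these 2 groups, and without 2iLif replicate 2 (-0.26, adjusted p = 0.29), PD032+ Aurka inh replicate 2 (adjusted p = 0.14) or PD032+ Aurka inh replicate 3 (adjusted p = 0.083). In PD032+ Aurka inh against PD032, 6 fell and 10 did not pass, where 23.8% of all genes fell.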

How the data were processed

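Poly(A) RNA of 15 libraries (5 cultures of 3) was prepared with a directional kit, per the labels' protocols. The deposited count table held whole-number counts per gene, which entered every fit. The second deposited table held values on the log2 scale, used only as a check: over 259 differences between group means of the 37 genes it differed from log2 CPM by a median of 0.0224 and at most 0.321. The submitters' processing notes name STAR, DESeq2 and mm10, with no versions. How reads were counted, by strand or not, and on which annotation is not given in the sources read, so overlapping and antisense genes are uncertain.

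Of 49585 identifiers, 49326 had a symbol in GENCODE M21. The filter filterByExpr kept 15223. The 15 libraries shared a quasi-likelihood fit in edgeR 4.0.16, with a term per group and TMM scaling (R 4.3.3, prior degrees of freedom 5.73), for 7 comparisons, called at a Benjamini-Hochberg adjusted p under 0.05. CPM are counts over TMM-scaled totals, log2 CPM used a prior count of 2, and lengths are unions of exons. Alternatives were library size alone, RLE factors, DESeq2 1.42.0, limma 3.58.1 (voom with a weight per group), no filter, fewer libraries, a replicate block and each library left out. The scripts were tested on simulated counts. The 37 genes, the lists and the naming rule (a set of 16 genes plus up to 3 further genes a role with the largest fold change and no overlap) were chosen with earlier results of these data known, and some genes are named beyond it.

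Whether replicate numbers pair libraries was checked by correlating deviations from group means. Same-numbered libraries of the inhibitor groups had r of 0.17 to 0.483 in all 9 pairs (differently numbered ones -0.40 to 0.22), so the numbers pair those libraries, by the data and not by a label. Between FGF2/Activin and 2iLif r was -0.026 to 0.00713, and between file sets -0.045 to 0.065, so the numbers pair nothing there. No 2 libraries were alike within sampling noise (chi-square over degrees of freedom 1.24 to 19.3). Sequences are from RefSeq, and those of Cth, Eif4ebp1, Nars and Wars are not used here.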

Additional observations from a re-analysis of the deposited data

How the results depend on the processing

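Of 146 calls over the 37 genes and 7 comparisons, 110 held in every alternative run for them, 36 were lost in at least 1, and 0 changed sign among those called. For the 11 genes named outside the 37, the same settings were run after seeing the data. Most calls lost among the 37 genes were under 0.3 in log2 fold change. Library size alone kept 137 of 146, RLE factors 139, DESeq2 142, limma voom 143 and no filter 138. These scalings moved the median of all genes by at most 0.073. As a ratio to the count in the report, the counts of ER genes called moved most. In PD032+ Aurka inh against PD032 the 5 became 3 with only the inhibitor libraries, and 3 to 7 with a library left out, the 3 without PD032+ Aurka inh replicate 1 or PD032 replicate 2. In PD032+ Aurka inh against Aurka inh the 3 became 1 with only the inhibitor libraries, and 1 to 3 with a library left out. In PD032 against Aurka inh the replicate block gave 4 in place of 2, and the same libraries with no block gave 2. Library size alone called 26 ATF4-related genes in place of 17 in PD032 against 2iLif, where it moved the median of all genes by 0.073. The cause of these shifts was not tested. The replicate block was fitted only within smaller sets of libraries, so it is set beside the same libraries with no block. In the inhibitor libraries, the number of the 37 genes called without the block and with it was 14 and 25 in PD032+ Aurka inh against PD032 (17 in the fit of all libraries), 13 and 24 in PD032+ Aurka inh against Aurka inh (17 in all libraries) and 16 and 29 in PD032 against Aurka inh (19 in all libraries). The share of all genes that passed was also higher with the block than in the fit of all libraries. In PD032+ Aurka inh it went from 43.7% to 57.5% against PD032 and from 34.9% to 48.4% against Aurka inh. In PD032 against Aurka inh it went from 45.5% to 58.3%. Of the calls in all libraries, the inhibitor libraries with no block lost 3 in PD032+ Aurka inh against PD032, 4 in PD032+ Aurka inh against Aurka inh and 3 in PD032 against Aurka inh, and with the block they lost none of these. Against 2iLif, where the numbers pair nothing, the 2 groups alone gave 28 without the block and 28 with it in FGF2/Activin, 21 and 19 in PD032+ Aurka inh, 24 and 24 in PD032 and 21 and 20 in Aurka inh. For the fits of 2 groups, and of the inhibitor libraries without the block, the share of all genes is not given here. Atf4 in PD032+ Aurka inh was among the calls lost with the block and not without it.

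The values that changed sign were all log2 fold changes that did not pass. Ddit3 in PD032+ Aurka inh against PD032 was 0.00085 with RLE factors, 0.00099 with DESeq2 and -0.059 to 0.053 with a library left out. Aars in PD032+ Aurka inh against Aurka inh was -0.016 with library size alone, -0.0136 with RLE factors, -0.0135 with DESeq2, -0.0123 with only the inhibitor libraries, -0.0125 with those libraries and the replicate block and -0.00795 to 0.0103 with a library left out. Hspa5 in PD032 against Aurka inh was -0.003455 with RLE factors, -0.003453 with DESeq2 and -0.026 to 0.083 with a library left out. Xbp1 in PD032+ Aurka inh against 2iLif was 0.024 with library size alone, 0.00496 with no filter, 0.0053 with only those 2 groups, 0.00595 with those 2 groups and the replicate block and -0.043 to 0.021 with a library left out. With a library left out, Hsp90b1 in FGF2/Activin against 2iLif ranged from -0.022 to 0.029, Slc7a11 from -0.19 to 0.076 in PD032+ Aurka inh against Aurka inh and -0.0073 to 0.26 in PD032 against Aurka inh, Phgdh in PD032 against 2iLif from -0.0041 to 0.0904 and Ddit3 in Aurka inh against 2iLif from -0.20 to 0.065.

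Counting depth limits mainly Ddit3, Dnajb9 and Atf3, the genes with the lowest CPM. Standard errors and p-values rest on a spread estimated per gene over all 15 libraries, with 3 in each group. They do not measure the spread of the compared groups alone. The coefficient of variation within a group ran from 1.77% in FGF2/Activin to 11.1% in Aurka inh.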

Other observations

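Of 6 targets of NRF2, the oxidative stress factor that also acts on Slc7a11, 5 rose and 1 did not pass in FGF2/Activin, 2 rose, 1 fell and 3 did not pass in PD032+ Aurka inh, 4 rose, 1 fell and 1 did not pass in PD032 and 4 rose and 2 fell in Aurka inh, each against 2iLif, where 65.9% in FGF2/Activin, 47.6% in PD032+ Aurka inh, 63.0% in PD032 and 58.4% in Aurka inh of all genes passed. Gclm, a subunit of the first enzyme of glutathione synthesis, had 318, 324 and 323 CPM in FGF2/Activin, 176, 169 and 177 in PD032+ Aurka inh and 235, 246 and 240.4 in PD032. It had 236, 232 and 229.7 CPM in Aurka inh, against 139, 147 and 139 in 2iLif. Its libraries in the other cultures lay above those of 2iLif, by 1.18 ± 0.041 in FGF2/Activin, 0.30 ± 0.041 in PD032+ Aurka inh, 0.76 ± 0.041 in PD032 and 0.72 ± 0.041 in Aurka inh, with a highest adjusted p of 2.0e-05. Hmox1, heme oxygenase, had log2 fold changes of 0.81 ± 0.05 in FGF2/Activin, 0.39 ± 0.05 in PD032+ Aurka inh, 0.66 ± 0.05 in PD032 and 0.62 ± 0.05 in Aurka inh, with a highest adjusted p of 9.5e-06. Srxn1, sulfiredoxin, rose in FGF2/Activin (0.27 ± 0.10, adjusted p = 0.022) and fell in PD032+ Aurka inh (-1.15 ± 0.10, adjusted p = 1.5e-07), PD032 (-0.92 ± 0.10, adjusted p = 7.5e-07) and Aurka inh (-0.86 ± 0.10, adjusted p = 2.1e-06). Its FGF2/Activin call was lost without 2iLif replicate 1 (adjusted p = 0.088), 2 (adjusted p = 0.098) or 3 (adjusted p = 0.068), and without FGF2/Activin replicate 1 (adjusted p = 0.052) or 3 (adjusted p = 0.061).

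Of 8 cytosolic and mitochondrial heat shock genes tested, 3 rose, 3 fell and 2 did not pass in FGF2/Activin, 2 fell and 6 did not pass in PD032+ Aurka inh, 5 fell and 3 did not pass in PD032 and 1 rose, 4 fell and 3 did not pass in Aurka inh, against 2iLif. Among all genes 33.3% in FGF2/Activin, 23.8% in PD032+ Aurka inh, 32.1% in PD032 and 28.9% in Aurka inh rose, and 32.6% in FGF2/Activin, 23.8% in PD032+ Aurka inh, 30.9% in PD032 and 29.5% in Aurka inh fell. Hspb1, a small heat shock protein, had 53.6, 48.0 and 51.9 CPM in FGF2/Activin, 139, 185 and 152 in PD032+ Aurka inh and 72.2, 97.7 and 74.7 in PD032. It had 70.7, 107 and 63.2 CPM in Aurka inh, against 156, 162 and 158 in 2iLif. It fell in FGF2/Activin (-1.63 ± 0.16, adjusted p = 1.9e-07), PD032 (-0.96 ± 0.16, adjusted p = 5.6e-05) and Aurka inh (-0.99 ± 0.16, adjusted p = 5.1e-05), and in PD032+ Aurka inh its libraries overlapped with 2iLif.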
